A study of Mus musculus with 12 samples.

Results

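Of 498516 genomic regions in which an ATAC-seq peak was listed in any of 12 samples of mouse neocortical projection neurons, 6786 (1.36%) were open in both lists of deep-layer neurons at E13.5 and in none of the other 10 lists. The members were chosen by measured values: overlapping or touching peaks of the 12 lists were joined into regions, any overlap of 1 bp or more with a list's peak made the region open there, and the open state in all 12 lists decided membership. The counts of members and the widths of their peaks therefore describe the set and are given without a test.

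ATAC-seq reads out accessible DNA through a transposase that inserts sequencing adapters where nucleosomes leave the DNA exposed. Accessible stretches include promoters, enhancers and insulators, and many enhancers of developing neurons are open for a limited time. Deep-layer projection neurons send axons below the cortex and are generated before the upper-layer neurons, which connect cortical areas with each other. Around E13.5 deep-layer neurons are being born and are leaving the germinal zone, so this stage lies close to their last division.

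All mice were of the CD1 strain and all cells were GFP-positive cells sorted from the neocortex. The deep-layer population came from animals with a Golli-GFP transgene, in which a promoter of the myelin basic protein gene drives GFP, and the stages were E13.5, then E16.5, then E18.5. The upper-layer population carried a Cdk5r promoter-GFP plasmid, introduced by electroporation in utero at E15.5, and was taken at E17.5, P1 and P5. The sort thus selects cells by a promoter-driven GFP in both populations, and in the upper-layer one also by birth date and plasmid uptake. The deep-layer population has no postnatal sample. Each of the 6 groups had 2 lists, and each replicate pooled 2 to 8 embryos, per the labels. The labels do not say that replicates came from separate litters. The deposited lists give positions and no level, so a weak signal cannot be told from none. The lists are on mm9, for which no gene annotation or sequence was used here: the labelled cell types were not checked against marker genes, and members are named by position, counted from 1.

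The labels used here give no read totals, so the number of peaks is only a rough stand-in for depth, and equal list length need not mean equal depth. The E13.5 lists held 129992 and 153892 peaks, the other 4 deep-layer lists 96452 to 126828 and the 6 upper-layer lists 107282 to 164508. The 2 upper-layer E17.5 lists carry the same library name in their peak names and may not be independent. The number of members is therefore also given without them.

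The E13.5 members were a small part of what was open at E13.5. Both E13.5 lists were open in 93677 regions, of which the members made up 7.24%. In 68810 regions (73.5%) at least 1 later deep-layer list and at least 1 upper-layer list were also open. A further 6397 regions (6.83%) were shared with later deep-layer lists and no upper-layer list, and 11684 (12.5%) with upper-layer lists and no later deep-layer list. In these counts, regions shared outside the population alone were more numerous than regions shared within it alone. There were, however, more upper-layer lists than later deep-layer lists, and the upper-layer lists included the longest of all. Of the 11684 regions, 6228 were open in both upper-layer E17.5 lists, which share a library name, and in no other list. These classes were not counted without the E17.5 lists or at equal list length, so no conclusion is drawn from their order.

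The E13.5-open regions were not evenly spread over the other lists. Counted by how many of the 10 other lists were open, the regions numbered 6786 for none, 5548 for 1, 9644 for 2, 8044 for 3, 8165 for 4, 8087 for 5, 12071 for 6, 5407 to 7182 for 7 to 9 and 17048 for all 10. At 2 lists, 6228 of the 9644 regions (64.6%) were open in exactly the E17.5 pair. At 6 lists, 8936 of the 12071 (74.0%) were open in every other prenatal list and in no postnatal one.

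**Figure D1:**
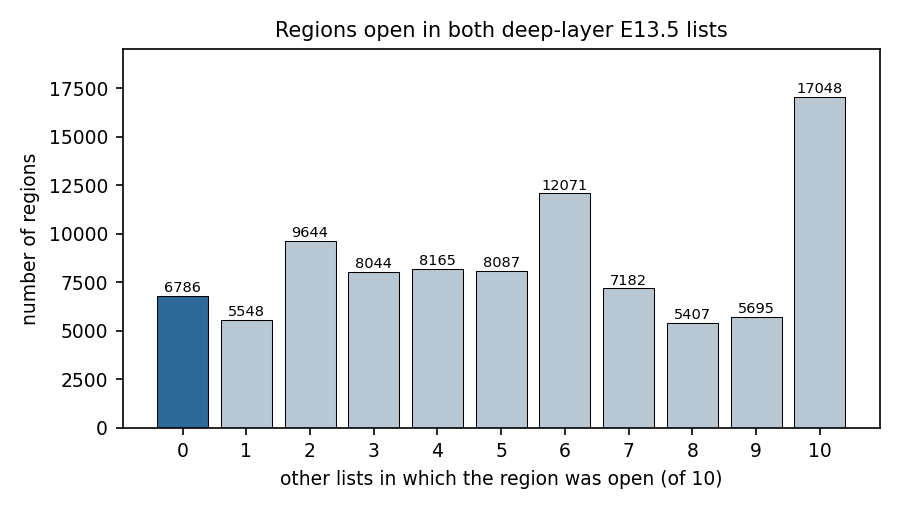
Number of regions open in both deep-layer E13.5 lists (vertical axis) by the number of the other 10 lists in which they were open (horizontal axis). The dark bar holds the 6786 members, and the bars at 2, 6 and 10 lists (9644, 12071 and 17048 regions) stand above their neighbours.

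Set beside the same count for each other replicate pair, the E13.5 count was the second highest of 6. The regions open in both lists of a group and in no other list numbered 666 (0.134% of all regions) at deep-layer E16.5 and 2021 (0.405%) at deep-layer E18.5. In upper-layer neurons they numbered 13132 (2.63%) at E17.5, 5564 (1.12%) at P1 and 4071 (0.817%) at P5. The E17.5 and E13.5 pairs were also the longest, with means of 143868 and 141942 peaks against 110146 to 119310 in the other pairs. Cut to equal list length by keeping the 96452 widest peaks of each list, the E13.5 count was 4775, against 1051 and 2413 at the later deep-layer stages and 8442, 4408 and 3285 at upper-layer E17.5, P1 and P5. With lists thinned at random to that length the E13.5 count was 4379 and the P1 count 4507, so that E13.5 followed E17.5 and P1. As a share of the regions open in both lists of the pair, the full lists gave 7.24% at E13.5, 0.935% at E16.5, 2.79% at E18.5, 11.8% at E17.5, 12.5% at P1 and 9.33% at P5. This share was lower at E13.5 than in each upper-layer pair and higher than at the later deep-layer stages. The full-list counts also rose with a neighbouring stage of the same population left out. Without E18.5 the E16.5 count was 4773, and without E16.5 the E18.5 count was 7155. Without P5 the P1 count was 12777, and without P1 the P5 count was 9775. The E13.5 count was 8907 without E16.5, and the E17.5 count was 14162 without P1. Their order thus depends on the stages sampled.

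The regions just outside the rule show which lists set its edge. Of the 5548 regions open in both E13.5 lists and exactly 1 other, upper-layer E17.5 replicate 1 accounted for 2053 and deep-layer E16.5 replicate 1 for 1564. Upper-layer E17.5 replicate 2 accounted for 617, deep-layer E18.5 replicate 2 for 428 and deep-layer E16.5 replicate 2 for 222. The 4 postnatal lists accounted for 103 to 167 each and deep-layer E18.5 replicate 1 for 98. The lists differed in length, from 96452 to 164508 peaks, and its part in this order was not tested. In the one list that kept them out, these regions had a median peak width of 288 bp, above the smallest listed width of 200 bp.

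**Figure D2:**
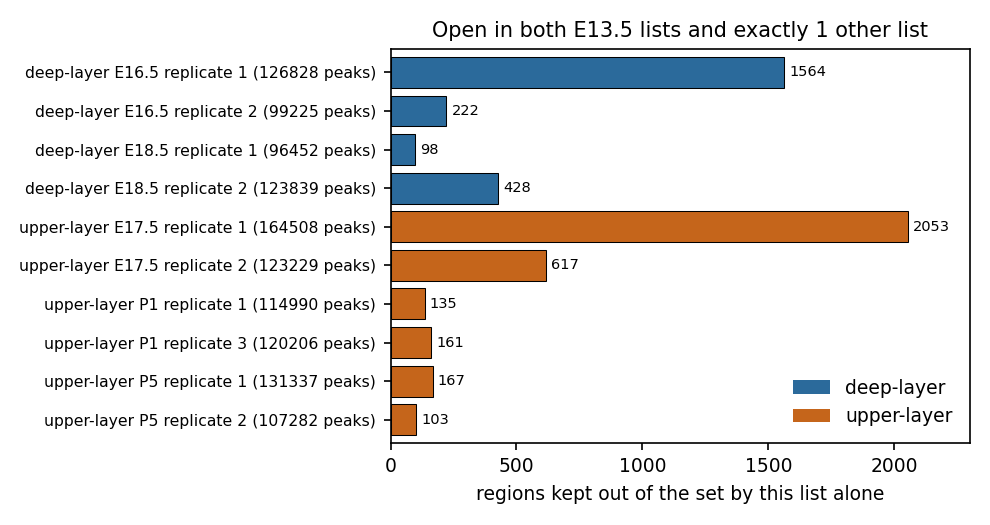
Regions open in both deep-layer E13.5 lists and in exactly 1 other list (horizontal axis), by that list (vertical axis, with its number of peaks), colour giving the population. Upper-layer E17.5 replicate 1 (2053) and deep-layer E16.5 replicate 1 (1564) have the longest bars.

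With 1 group left out at a time, the E13.5 count changed most without the upper-layer E17.5 lists (this comparison was chosen after seeing the data). With both E17.5 lists left out, 16236 regions were open at E13.5 alone. Leaving out both lists of deep-layer E16.5 gave 8907, of deep-layer E18.5 gave 7436, of upper-layer P1 gave 7111 and of upper-layer P5 gave 7110. With either E17.5 list left out singly the count was 8933 (replicate 1) and 7423 (replicate 2). At equal list length the E17.5 pair again gave the highest count among the 5 groups: with the widest peaks 9976, against 6731 for E16.5 and 4998 to 5256 for the others, and after thinning 8731, against 5785 and 4585 to 5013. Leaving out 1 group frees only the regions that this group alone closed. Deep-layer E16.5 and E18.5 were not left out together. As given above, 6397 E13.5-open regions were shared with later deep-layer lists and no upper-layer list. The order therefore covers single groups only.

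Regions shared by E13.5 with 1 other group and with nothing else were most numerous for the same group. Both E13.5 and both E17.5 lists, and no other, were open in 6228 regions. For E13.5 with deep-layer E16.5 the number was 276, with E18.5 it was 88, with P1 it was 18 and with P5 it was 25. At equal length the E17.5 number was 3417 with the widest peaks and 1649 after thinning, against 461 and 265 for E16.5. E13.5 and E17.5 are the youngest stages sampled in the 2 populations, and E16.5 is the next deep-layer stage. A region shared with E16.5 is, however, often also open at E18.5 and so counted elsewhere: with the E18.5 lists left out, 2650 regions were open in the E13.5 and E16.5 pairs alone and 7701 in the E13.5 and E17.5 pairs alone. At equal list length these counts lay nearer to each other, at 3221 and 4133 with the widest peaks and 1693 and 2120 after thinning. No test was made, because the open state of the same lists chose the members.

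Members were narrow. In E13.5 replicate 1 the widest peak per member had a median of 306 bp, against 390 bp over all peaks of that list, and in replicate 2 a median of 333 bp against 397 bp. Members exceeded the median width of their list in 23.8% (replicate 1) and 29.9% (replicate 2) of cases. They were still wider than regions listed in a single E13.5 replicate and nowhere else, of which replicate 1 held 14863 with a median of 233 bp and replicate 2 held 20957 with a median of 241 bp. The merged members had a median length of 398 bp, with 5% below 258 bp and 5% above 688 bp, and the longest spanned 1724 bp. The regions open in 1 other pair alone were of similar length at deep-layer E16.5 (median 381.5 bp) and upper-layer P1 (402 bp) and longer at E18.5 (437 bp), P5 (440 bp) and upper-layer E17.5 (479 bp).

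Width rose step by step with the number of lists sharing a region. The median peak width in E13.5 replicates 1 and 2 was 306 and 333 bp for members, 332 and 358 bp with 1 other list open, 368 and 399 bp with 2, 447 and 491 bp with 5, and 727 and 803 bp with all 10. Both E13.5 peaks were at least 500 bp wide in 247 members (3.64%), against 34130 of the 86891 other E13.5-open regions (39.3%). Both were under 250 bp, close to the 200 bp floor of the lists, in 670 members (9.87%) and in 1.79% of the other regions. Peak width depends on signal strength and depth as well as on the size of the element, and these could not be told apart in the lists. The rule also favours this order, since 1 bp of overlap makes a region open and a wider peak can meet more lists. How far the rule sets the order was not tested.

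**Figure D3:**
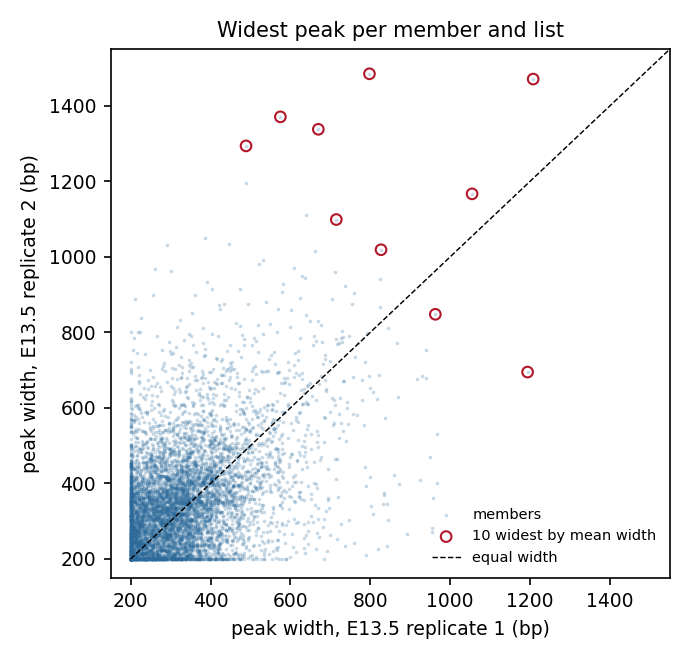
Width of the widest peak in each of the 6786 members in E13.5 replicate 1 (horizontal axis, bp) and replicate 2 (vertical axis, bp). Points crowd near the 200 bp floor, the circled points are the 10 members with the largest mean width, and the dashed line marks equal widths.

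In members the peaks of the 2 replicates lay close together but differed in width. The rule sets much of this closeness, since a member holds only E13.5 peaks that overlap or touch. In the other E13.5-open regions a peak of another list can join them, so the 2 sets are not alike in this. The midpoints of the 2 peaks lay a median of 48 bp apart in both sets, and within 100 bp in 78.9% of members. The overlap covered a median of 98.0% of the shorter peak, and 3029 members (44.6%) had 1 peak wholly inside the other. In 397 members (5.85%) the overlap was under 50% of the shorter peak, and in 3 of these members the peaks only touched. The share under 50% was 2.77% in the other E13.5-open regions and 6.99% in those with exactly 1 other list open. The widths in the 2 replicates were loosely related across members (Spearman's rho 0.34 over 6786 regions, a description, since regions are not independent replicates), against 0.72 across the other 86891. Across the 5548 of these with exactly 1 other list open rho was 0.37, close to that of members. Member widths span a narrow range near the 200 bp floor, and its part in the low rho was not tested. Replicate 2, the longer list, had the wider peak in 3920 members (57.8%) and replicate 1 in 2754, a split close to that in the other E13.5-open regions, where replicate 2 was wider in 60.7%.

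The widest member lay on chromosome 16 from 74847362 to 74848877. Its peaks measured 1208 bp in replicate 1, the widest of any member there, and 1471 bp in replicate 2, the second widest, and 1163 bp were shared. The nearest peak of any other list was 5.86 kb away, in upper-layer E17.5 replicate 1, and the nearest region open in all 12 lists was 434 kb away. A member on chromosome 1 from 27588860 to 27590035 had widths closer to each other, at 1055 and 1167 bp with 1046 bp shared, and lay 4.43 kb from the nearest peak of another list and 844 kb from a region open in all lists. These 2 members were wide in both replicates.

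Others of the 10 widest were uneven between the replicates. On chromosome 4, from 120540367 to 120541851, the peaks measured 798 and 1485 bp, the latter the widest member peak of replicate 2. On chromosome 3, from 126381717 to 126383054, they measured 670 and 1338 bp, on chromosome 18, from 89584113 to 89585752, 575 and 1371 bp, and on chromosome 4, from 39677358 to 39678651, 489 and 1294 bp. The chromosome 18 peaks shared only 306 bp. In these 4 members replicate 2 was the wider list.

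Replicate 1 was the wider list at chromosome 2 from 37185928 to 37187200, with 1194 and 695 bp, where a peak of upper-layer P1 replicate 3 lay 0.138 kb away, and at chromosome 15 from 30156449 to 30157411, with 963 and 848 bp. The remaining pair lay on chromosome 6 from 107580916 to 107582020, with 827 and 1019 bp, and on chromosome 2 from 86191840 to 86192938, with 715 and 1099 bp. The latter was the most isolated of the 10 from regions open in all lists, at 1152 kb. Over the 10 members the median distance to the nearest peak of another list was 3.91 kb and ranged from 0.138 to 6.83 kb.

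Wide regions occurred just outside the rule too, and these are the 3 widest there. The widest region open in both E13.5 lists and 1 other lay on chromosome 19 from 14500339 to 14502165, with peaks of 1827 and 1075 bp at E13.5 and one of 607 bp in upper-layer E17.5 replicate 1. The second, on chromosome 2 from 80452169 to 80453388, had 1220 and 946 bp at E13.5 and 807 bp in the same E17.5 list. Another, on chromosome 7 from 56058768 to 56060087, had 826 and 1238 bp at E13.5 and a peak of 231 bp in upper-layer P5 replicate 2. The last of these was kept out by a peak near the floor.

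Members were spread over all chromosomes. Members numbered 6776 on the 19 autosomes and X and 10 on Y and unplaced sequence. As a share of the E13.5-open regions that were not open in all 12 lists, members made up 8.86% over the genome and 7.02% to 10.6% on each autosome and X. Among these 20 the highest shares were on chromosome 16, with 359 of 3376 (10.6%, 95% Wilson interval 9.64 to 11.7), and on X, with 244 of 2361 (10.3%, 9.17 to 11.6). The lowest were on chromosome 7, with 211 of 3006 (7.02%, 6.16 to 7.99), and chromosome 18, with 193 of 2712 (7.12%, 6.21 to 8.15). The intervals cover counting error only and treat regions as independent. The share of members on X, 3.60%, was near that of the other replicate pairs' own regions, 3.18% to 3.60%.

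Members lay far from regions that were open everywhere. The nearest region open in all 12 lists was a median of 103 kb away from a member. For regions that both E13.5 lists and 1 to 9 others held the median was 63.6 kb, and for those with exactly 1 other list, a part of the same set, 89.6 kb. Among these E13.5-open sets the distance was longest for members. Within 10 kb of a region open in all lists lay 673 members (9.92%) and 12.8% of the former comparison set. Among the regions of 1 replicate pair alone, the median distance was 70.7 kb at deep-layer E16.5, 77.5 kb at E18.5, 85.0 kb at upper-layer E17.5, 82.9 kb at P1 and 31.9 kb at P5, all shorter than for E13.5. With random thinning, which left few regions open in all lists, the medians were 868 kb for members and 610 kb for the comparison set, and without the 4 postnatal lists they were 22.6 and 19.1 kb, so the order was the same and the size of the gap was not.

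A member lay in 2137 of the 2553 windows of 1 Mb with E13.5-open regions (83.7%), with a median of 2 per window and at most 13. Windows without any region open in all 12 lists held a mean of 3.14 members, windows with 1 to 2 such regions 3.14, with 3 to 5 3.03, with 6 to 10 2.44, with 11 to 15 2.05 and with 16 to 50 1.53. Other E13.5-open regions had a different profile: those not open in all lists, members included, rose from 20.6 per window where no region was open in all lists to 34.3 at 6 to 10 and fell to 25.5 at 16 to 50. The members' share of them therefore fell from 15.2% to 6.01%. Regions open at upper-layer E17.5 alone went from 4.43 per window through 5.92 at 3 to 5 down to 3.26 at 16 to 50, so they were higher at 1 to 10 such regions than at none, while members per window were level from none to 3 to 5 and lower beyond.

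**Figure D4:**
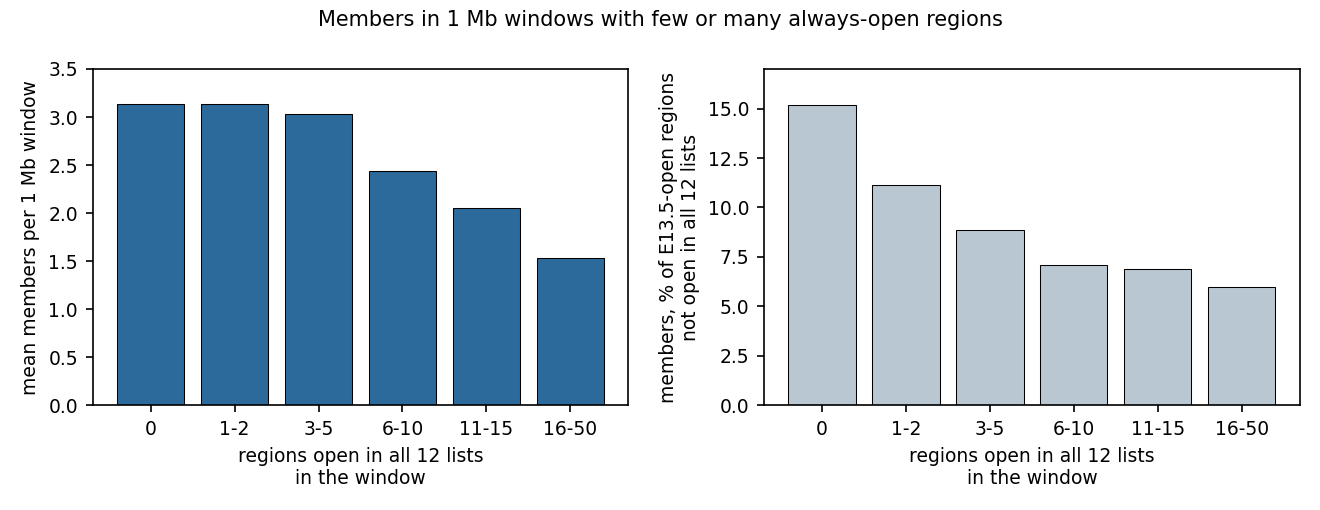
Mean number of members per 1 Mb window (left, vertical axis) and members as a percent of E13.5-open regions not open in all 12 lists (right, vertical axis), by the number of regions in the window that were open in all 12 lists (horizontal axes). Members per window are level from 0 to 3-5 (3.14, 3.14 and 3.03) and then fall to 1.53, and the percent falls at each step from 15.2% to 6.01%.

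The densest window, on chromosome 1 from 31000001 to 32000000, held 13 members among 39 E13.5-open regions that were not open everywhere (33.3%). They lay between 31087855 and 31931911, with a median length of 375 bp and peaks of 200 to 527 bp in replicate 1 and 200 to 562 bp in replicate 2. This was a group of narrow members, not a run of wide ones. A further 5 windows held 11 members each. They lay on chromosome 3 from 59000001 to 60000000 (35.5% of 31 regions), on chromosome 8 from 61000001 to 62000000 (25.6% of 43), on chromosome 9 from 26000001 to 27000000 (22.9% of 48), on chromosome 15 from 24000001 to 25000000 (26.8% of 41) and on chromosome 16 from 76000001 to 77000000 (20.4% of 54). Regions open in all lists numbered 1 or 2 in 5 of the 6 windows and 7 in the chromosome 9 window. Members of the chromosome 16 window were the widest by median length together with those of chromosome 9, at 479 and 476 bp.

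The next member was a median of 101 kb away, 590 members (8.69%) had another within 10 kb and 113 (1.67%) within 1 kb. Within the sets open in 1 other pair alone the same median was 50.6 kb at upper-layer E17.5, 103 kb at P1 and 111 kb at P5. It was 288 kb at deep-layer E18.5 and 1110 kb at E16.5. Over these sets and the members the distance was longer where the set held fewer regions. The nearest member lay farther, at a median of 116 kb, from the comparison regions open in both E13.5 lists and 1 to 9 others, and 6.80% of those had a member within 10 kb. Regions with exactly 1 other list open were as near to a member as members were to each other, at a median of 100 kb with 8.65% within 10 kb. Upper-layer E17.5-alone regions were a median of 129 kb from a member and deep-layer E18.5-alone regions 111 kb.

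Most members had other peaks close by, and so did other regions. A peak of at least 1 other list lay within 100 bp of 234 members (3.45%), within 500 bp of 1349 (19.9%), within 1 kb of 2356 (34.7%) and within 10 kb of 6376 (94.0%). Another region of any kind lay within 1 kb of 41.6% of members. The same held for 48.7% of regions open in both E13.5 lists and 1 to 9 others and 41.8% of upper-layer E17.5-alone regions. Within 10 kb the values were 96.1%, 97.4% and 96.0%. The 410 members with none within 10 kb were open stretches away from any peak of the other 10 lists. Closing gaps of up to 500 bp when merging left 5646 members.

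Further peaks around members, beyond the members themselves, were listed within 10 kb less often than around comparison regions in all 12 lists, with the smallest gaps at E13.5. At shorter range the E13.5 lists did not all show this order. Within 1 kb the values were 15.6% for members against 14.9% for comparison regions in replicate 1, with members also the higher in replicate 2. Within 5 kb they were 49.4% against 48.5% in replicate 1 and 53.6% against 54.3% in replicate 2. The values that follow are for 10 kb. In E13.5 replicate 1 a further peak lay within 10 kb of 70.3% of members and of 71.3% of the regions open in both E13.5 lists and 1 to 9 others. In replicate 2 the values were 74.2% and 76.7%. In the 4 other deep-layer lists they were 65.1% against 70.3% (E16.5 replicate 1), 51.2% against 59.4% (E16.5 replicate 2), 47.3% against 56.8% (E18.5 replicate 1) and 60.9% against 68.8% (E18.5 replicate 2). Members thus fell 1.04 and 2.57 percentage points below the comparison regions in the E13.5 lists and 5.25 to 9.54 points in the later deep-layer lists.

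In upper-layer lists at E17.5 the values were 72.8% against 79.6% and 60.0% against 69.2%, at P1 40.3% against 49.4% and 48.2% against 55.7%, and at P5 39.9% against 51.7% and 39.3% against 50.5%. The gap was 11.8 and 11.2 points in the P5 lists, wider than in any other list. Regions open in both E13.5 lists and exactly 1 other lay between members and the wider comparison set in these lists, with 52.4% in E16.5 replicate 2, 49.3% in E18.5 replicate 1, 76.1% in E17.5 replicate 1, 48.8% in P1 replicate 3 and 41.4% in P5 replicate 2. Because members were required to be closed in these 10 lists and the comparison regions were not, no test of the gap was made, and how far it follows from that requirement was not tested.

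**Figure D5:**
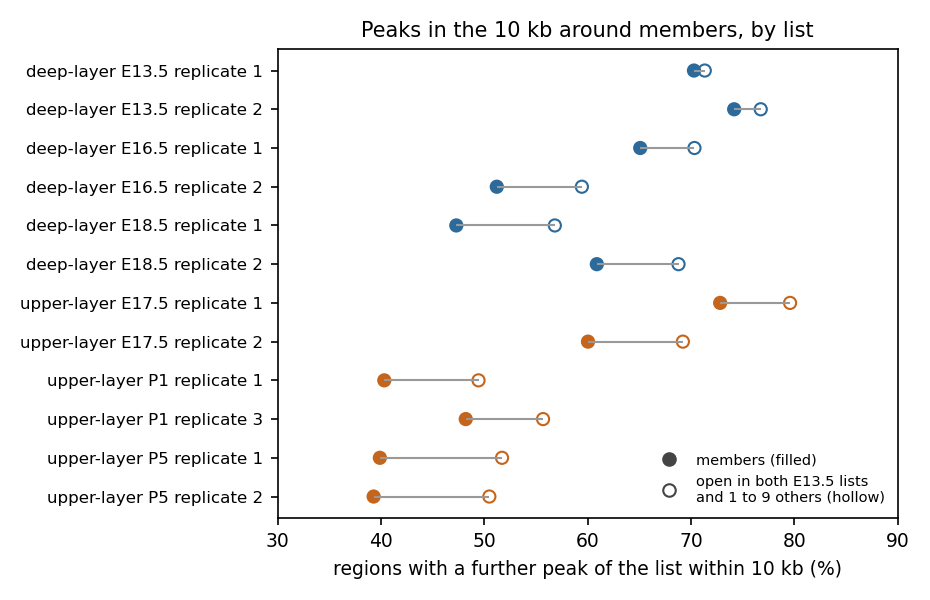
Percent of regions with a further peak of the list within 10 kb (horizontal axis), by list (vertical axis), for members (filled) and for regions open in both E13.5 lists and 1 to 9 others (hollow), blue for deep-layer and orange for upper-layer lists. The points nearly meet in the 2 E13.5 lists and stand apart by 5.25 to 11.8 percentage points in the other 10.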

How the data were processed

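The deposited data were 12 lists of peak positions in bp (chromosome, start, end and name, with no score), 1 per sample. The submitters' processing notes list MACS2 2.1.0, Picard 1.14.0, Bowtie2 and cutadapt, with mm9 as build. For read shifts, thresholds, read totals and each tool's role, nothing is stated in the labels used here. Groups came from the sample titles.

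Peaks were merged into regions with numpy 2.4.6 and pandas 2.3.3 on Python 3.11.15. The merge and the rule were tested on simulated lists against bedtools 2.31.1. Distances run between region or peak edges. Wilson intervals (95%) came from scipy 1.17.1, and figures from matplotlib 3.10.9.

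The members and lists were chosen with earlier results of these data known. Named were the 10 members with the largest mean E13.5 peak width and the 3 windows of 1 Mb with the most members, with ties at the third place kept, which gave 6. Gene, motif and sequence results planned for an mm9 reference are not analysed here. Alternatives were each list or group left out, merging across gaps, at least 0.5 of a region covered, 500 bp windows, equal list lengths and autosomes only. Leaving out groups was added after seeing the data.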

Additional observations from a re-analysis of the deposited data

How the results depend on the processing

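The number of E13.5-alone regions, 6786 as deposited, was 4379 after 1 random thinning to equal length and 16236 without both upper-layer E17.5 lists, settings that use fewer peaks or fewer lists. It was 4775 with the widest peaks and 5646 to 8044 when merging across gaps of up to 100 or 500 bp, with at least 0.5 of the region covered, with 500 bp windows and on autosomes only. Leaving out 1 list gave 6885 to 28062, and the values over 1.5 times the deposited count were those without deep-layer E13.5 replicate 1 (28062) or 2 (22035), where 1 list then defined the stage. The median member length of 398 bp became 492 bp with the widest peaks, 409 bp after thinning and 427 bp without E17.5, and ranged from 250 to 403 bp with 1 list left out. The share of members on X was 2.31% to 3.57% with 1 list left out. The share with another list's peak within 1 kb was 25.9% with the widest peaks, 31.7% after thinning, 30.5% without E17.5, 26.6% without the 4 postnatal lists and 32.2% to 38.5% with 1 list left out. The median distance to a region open in all lists used was 110 kb with the widest peaks (70.1 kb for the comparison regions), 868 kb after thinning, 22.6 kb without the postnatal lists and 83.1 to 135 kb with 1 list left out. In each of these it was longer for members than for the comparison regions. Peak numbers limit precision: a region can be closed because a list is short. The alternatives for transcription starts, GC content and motifs were not run, as those results are not analysed here.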
